A study of Mus musculus with 12 samples.

Results

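The desmosomal cadherins and plaque proteins were examined in periocular skin of ft/ft and ft/ftMyD88-/- mice, as 10 genes picked by symbol from the 21247 genes in the count table. They were the desmogleins *Dsg1a*, *Dsg1b*, *Dsg2* and *Dsg3*, the desmocollins *Dsc1*, *Dsc2* and *Dsc3*, and the plaque genes *Dsp*, *Pkp1* and *Jup*. All 10 were in the table and all 10 reached the minimum for testing. Biopsies came from 6-week-old BALB/c mice that the series description gives as female, with 4 libraries per genotype. ft/ft mice carry a point mutation that arose spontaneously and disables filaggrin, a protein of the cornified layer, and ft/ftMyD88-/- mice, bred from a cross of both lines, lack MyD88 as well. The methods state that the ft/ft line lacks the matted (*ma*) mutation of *Tmem79*. Both groups therefore share the filaggrin defect. MyD88 relays signals of toll-like receptors and IL-1 family receptors, and the labels give no promoter or cell type for its loss, so no skin cell type is singled out. WT skin was not analysed here.

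Desmosomes are the spot-like junctions that join keratinocytes and tie their keratin filaments together across cells. The extracellular parts of desmogleins and desmocollins bind each other between neighbouring cells, and their tails bind plakoglobin (*Jup*) and plakophilins such as plakophilin 1 (*Pkp1*). These plaque proteins recruit desmoplakin (*Dsp*), which anchors keratin filaments. In epidermis the cadherins are layered, with Dsg1 and Dsc1 mainly in upper layers, Dsg3 and Dsc3 mainly in lower layers, and Dsg2 and Dsc2 better known from simple epithelia. Mice carry several *Dsg1* genes where humans have a single one.

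*Dsp* lies on chromosome 13 (38151294 to 38198577), *Jup* on chromosome 11 (100368958 to 100397763) and *Pkp1* on chromosome 1 (135871395 to 135919207), on GRCm38 by the GENCODE vM21 annotation. RefSeq promoter sequence was at hand for 2 of the members, *Dsp* and *Jup*, the linker to keratin and the arm-repeat protein that binds both cadherin kinds. Only bases upstream of the outermost RefSeq start are shown, 5′ to 3′, for chr13:38151044-38151293 on the plus strand and chr11:100397840-100398040 on the minus strand of GRCm38.p6. Capitals mark GC boxes (GGGCGG) and CACCC boxes (CACCC), searched on both strands.
Dsp: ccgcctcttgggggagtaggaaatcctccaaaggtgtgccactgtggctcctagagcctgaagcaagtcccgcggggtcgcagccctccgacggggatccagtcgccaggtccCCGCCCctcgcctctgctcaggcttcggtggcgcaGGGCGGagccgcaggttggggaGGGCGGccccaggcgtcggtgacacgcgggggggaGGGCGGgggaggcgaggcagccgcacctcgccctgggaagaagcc
Jup: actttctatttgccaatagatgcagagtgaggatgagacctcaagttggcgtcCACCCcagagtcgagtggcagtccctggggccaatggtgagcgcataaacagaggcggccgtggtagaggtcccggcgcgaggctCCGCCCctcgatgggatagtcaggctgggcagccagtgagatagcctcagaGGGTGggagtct
*Dsp* had 4 GC box matches in 250 bases, where 32.7% of 32851 RefSeq promoter windows of that length held at least 1, and no CACCC box, which 52.0% held. *Jup* had 1 GC box and 2 CACCC boxes in 201 bases, against 24.8% and 44.6% of windows with at least 1. Neither window held an AP-1 motif (TGANTCA), found in 6.75% of 250-base and 5.59% of 201-base windows, or an E-box (CACCTG), found in 17.2% and 14.5%. These letter matches are descriptions of the windows and were not tied to binding.

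Sex-linked transcripts differed between the groups although the series description gives female mice. *Xist* totalled 1 count in the 4 ft/ft libraries and was at 49.4 ± 13.3 CPM (SD, n = 4) in ft/ftMyD88-/-, whereas the Y-linked *Ddx3y* stood at 65.0 ± 8.97 CPM for ft/ft against 0.147 ± 0.225 for ft/ftMyD88-/-. A difference by genotype and one by sex therefore cannot be told apart here. CPM is the usual per-library scaling of read counts, after TMM normalization. The targeted gene, *Myd88*, was higher rather than lower in the libraries labelled ft/ftMyD88-/- (41.2 ± 7.29 against 30.7 ± 4.74 CPM). *Tmem79* was at 16.4 ± 2.10 CPM there against 59.2 ± 2.92 in ft/ft (log2 fold change -1.855, edgeR adjusted p = 5.08e-07). A difference that goes with this *Tmem79* level cannot be told apart from one by loss of MyD88 either. The *Myd88* counts thus did not check the labels, and the directions given rest on the labels. Total counts were 18941705 to 29255129 for the ft/ft libraries, and for the ft/ftMyD88-/- libraries 15802957 to 27037997. The study names as many mice per group as there are libraries.

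The 7 cadherin genes lie in one cluster on chromosome 18 of GRCm38, from 19960930 at *Dsc3* to 20604521 at *Dsg2*. Compared per kilobase of annotated exon, *Dsp* was the most abundant of the 10 transcripts and *Dsg2* the least abundant in both groups. Division by exon length assumes reads from whole transcripts, and the sources differ on the protocol, so the order in between is uncertain. Without that division, *Jup* (1118 CPM) stood above *Pkp1* (980 CPM) in ft/ft. In ft/ft, mean CPM per kilobase ran from 375 for *Dsp* through 195 for *Pkp1*, 174 for *Jup*, 168 for *Dsg1a*, 122 for *Dsc3* and 95.7 for *Dsc1* to 33.7 for *Dsc2*, 25.7 for *Dsg1b*, 23.1 for *Dsg3* and 5.52 for *Dsg2* (n = 4). Neighbours in this order whose libraries overlapped were *Pkp1* and *Jup*, *Jup* and *Dsg1a*, *Dsc2* and *Dsg1b*, and *Dsg1b* and *Dsg3*. In ft/ftMyD88-/-, *Dsg1a* (78.6 CPM per kilobase) stood below *Dsc3* (87.2) and above *Dsc1* (74.6), overlapping with both. *Dsp* remained first at 246, followed by *Pkp1* at 187 and *Jup* at 137, and the libraries of these 3 did not overlap with one another.

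Desmoglein 1a, desmocollin 3, desmoplakin and plakoglobin transcripts fell in ft/ftMyD88-/- skin relative to ft/ft, and no member rose. The call of *Dsg1a* held under every alternative run, that of *Dsc3* was lost on a scale set by epithelial genes, and that of *Jup*, just under the threshold, was lost in 7 of 8 fits without 1 library. *Dsg1a* changed most, to 0.467 of its ft/ft level. With edgeR (quasi-likelihood F test, Benjamini-Hochberg over 20454 genes), 4 of the 10 members were lower at an adjusted p under 0.05, where 12.3% of all genes tested were lower, 10.9% higher and 23.3% called in either direction. The median log2 fold change of the members was -0.35, against 0.01 over all genes tested. The groups did not overlap for the same 4 members, all lower, while this held for 14.2% of all genes in that direction and 26.7% in either. In bulk skin, fewer cells of a type and less RNA per cell cannot be told apart.

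**Figure D1:**
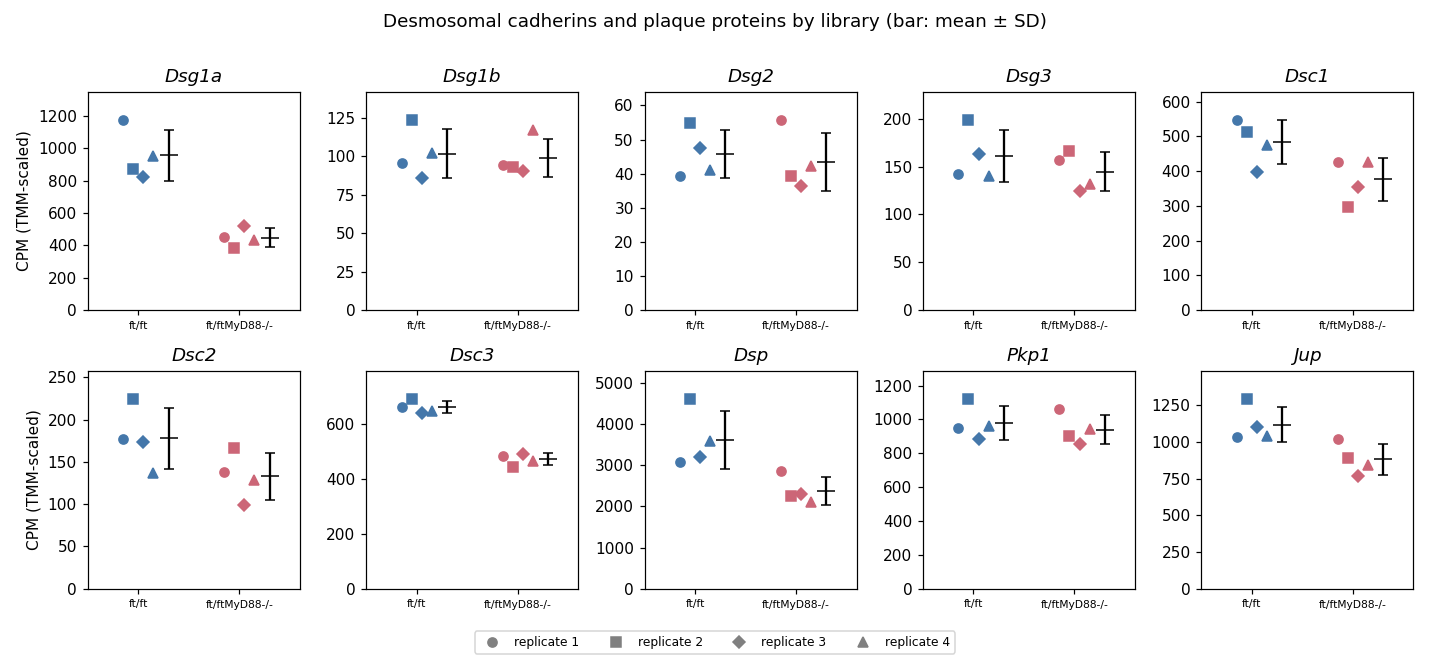
Level of each of the 10 members in CPM (TMM-scaled, axes from 0) in the 4 ft/ft (blue) and 4 ft/ftMyD88-/- (red) libraries, with symbols for the replicate number and black bars for mean ± SD. The groups separate for *Dsg1a*, *Dsc3*, *Dsp* and *Jup* and overlap for the other 6.

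Among the desmogleins, *Dsg1a* encodes a form of Dsg1, the adhesion molecule of upper epidermal layers that exfoliative toxins cleave. It was at 1175, 870.3, 824 and 955 CPM in ft/ft replicates 1 to 4 and at 451, 382, 522 and 433 in ft/ftMyD88-/- replicates 1 to 4. Every ft/ftMyD88-/- library lay below every ft/ft library. The log2 fold change was -1.10 ± 0.132 (SE, edgeR adjusted p = 2.27e-04). The call held in all 8 fits that left out 1 library each, with log2 fold changes from -1.16 to -0.98.

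Its neighbour *Dsg1b*, a second *Dsg1* gene of the mouse, was at 95.8, 123, 85.6 and 102 CPM in ft/ft and at 94.1, 92.7, 90.5 and 117 in ft/ftMyD88-/-. The groups overlapped fully, with a log2 fold change of -0.05 ± 0.121 (SE, edgeR adjusted p = 0.82). There were 12.3, 7.05, 9.63 and 9.36 *Dsg1a* counts per *Dsg1b* count in the ft/ft libraries and 4.79, 4.12, 5.76 and 3.69 in the ft/ftMyD88-/- libraries, a ratio chosen after the values were seen and given without a test. Of the distinct 50-base windows in annotated *Dsg1a* transcripts, 31.6% also occurred in *Dsg1b*, and 45.5% of those of *Dsg1b* occurred in *Dsg1a*. Reads in such windows cannot be assigned to one gene, so the split between these genes is uncertain. *Dsg1c*, the remaining *Dsg1* gene, was at 0.588 to 1.10 CPM over all 8 libraries.

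*Dsg3*, the desmoglein of lower layers and the antigen of pemphigus vulgaris, was at 142, 198, 164 and 140.2 CPM in ft/ft and at 157, 166, 124 and 132 in ft/ftMyD88-/-. The groups overlapped (log2 fold change -0.15 ± 0.13 SE, edgeR adjusted p = 0.426). *Dsg2*, which is also made in heart and simple epithelia, was at 39.3, 54.8, 47.5 and 41.0 CPM in ft/ft and 55.7, 39.3, 36.3 and 42.2 in ft/ftMyD88-/-, with overlap and a log2 fold change of -0.08 ± 0.143 (SE, edgeR adjusted p = 0.746). Exons of *Gm16090* on the opposite strand cover 3.99% of *Dsg2* exon bases.

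All 3 desmocollins had negative estimates, and *Dsc3* passed the test. *Dsc3*, the desmocollin of lower layers, was at 663, 691, 641 and 648 CPM in ft/ft and at 485, 443, 492 and 465 in ft/ftMyD88-/-. Its libraries lay close together in each group and the groups were far apart relative to that spread. The log2 fold change was -0.49 ± 0.0836 (SE, edgeR adjusted p = 0.00178) and stayed between -0.50 and -0.46 in the 8 fits without 1 library. *Dsc1*, the desmocollin of upper layers, was at 547, 513, 399 and 474 CPM in ft/ft and 427, 298, 354 and 426 in ft/ftMyD88-/-, with overlap through ft/ft replicate 3 (log2 fold change -0.36 ± 0.134 SE, edgeR adjusted p = 0.0699). The adjusted p was 0.0462 without that library and 0.0496 without ft/ftMyD88-/- replicate 1. *Dsc2* was at 177, 224, 173 and 136 CPM in ft/ft and 138, 166, 98.5 and 128 in ft/ftMyD88-/-, also overlapping (log2 fold change -0.42 ± 0.173 SE, edgeR adjusted p = 0.105). Without ft/ftMyD88-/- replicate 2 its adjusted p was 0.046.

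Of the plaque genes, *Dsp* was at 3073, 4609, 3192 and 3599 CPM in ft/ft and at 2856, 2247, 2308 and 2096 in ft/ftMyD88-/-. The groups did not overlap, and ft/ft replicate 2 was highest. The log2 fold change was -0.61 ± 0.148 (SE, edgeR adjusted p = 0.0115), and without 1 library at a time it stayed called, between -0.70 and -0.47. Exons of *Gm10129* on the opposite strand cover 5.17% of *Dsp* exon bases. *Jup* was at 1035, 1293, 1105 and 1040 CPM in ft/ft and at 1021, 894, 769.9 and 845 in ft/ftMyD88-/-, so that the nearest libraries of the groups were almost level. Its log2 fold change was -0.34 ± 0.115 (SE, edgeR adjusted p = 0.0487), and the call was kept in 1 of the 8 fits without 1 library, the one without ft/ftMyD88-/- replicate 1 (adjusted p = 0.029), the other 7 running up to 0.133. *Pkp1*, which clusters desmosomal cadherins in upper layers, was at 952, 1121, 886 and 961 CPM in ft/ft and 1059, 903, 855 and 945 in ft/ftMyD88-/-, with overlapping groups (log2 fold change -0.06 ± 0.106 SE, edgeR adjusted p = 0.73).

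The size of these differences depended on how libraries were scaled. The median log2 fold change of all genes was 0.013 with TMM, 0.156 when libraries were scaled on 20 pan-epithelial genes (none of them a member) and 0.19 with library size alone. Of the 20 scaling genes, 6 were lower and 1 higher with TMM, with a median log2 fold change of -0.124. The shares over all genes were 12.3% lower and 10.9% higher. On the pan-epithelial scale, *Dsg1a* (log2 fold change -0.95, edgeR adjusted p = 5.19e-04) and *Dsp* (-0.47, adjusted p = 0.035) stayed lower, against 4.68% of all genes lower, 13.7% higher and 18.4% called. *Dsc3* (-0.35, edgeR adjusted p = 0.0636) and *Jup* (-0.21, edgeR adjusted p = 0.259) were no longer called on that scale. With library size alone, *Dsg1a*, *Dsc3* and *Dsp* were called lower, against 6.48% of all genes lower and 29.2% called. Estimates of the uncalled *Dsg1b*, *Dsg2* and *Pkp1* turned positive under both scalings, and that of *Dsg3* with library size alone.

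**Figure D2:**
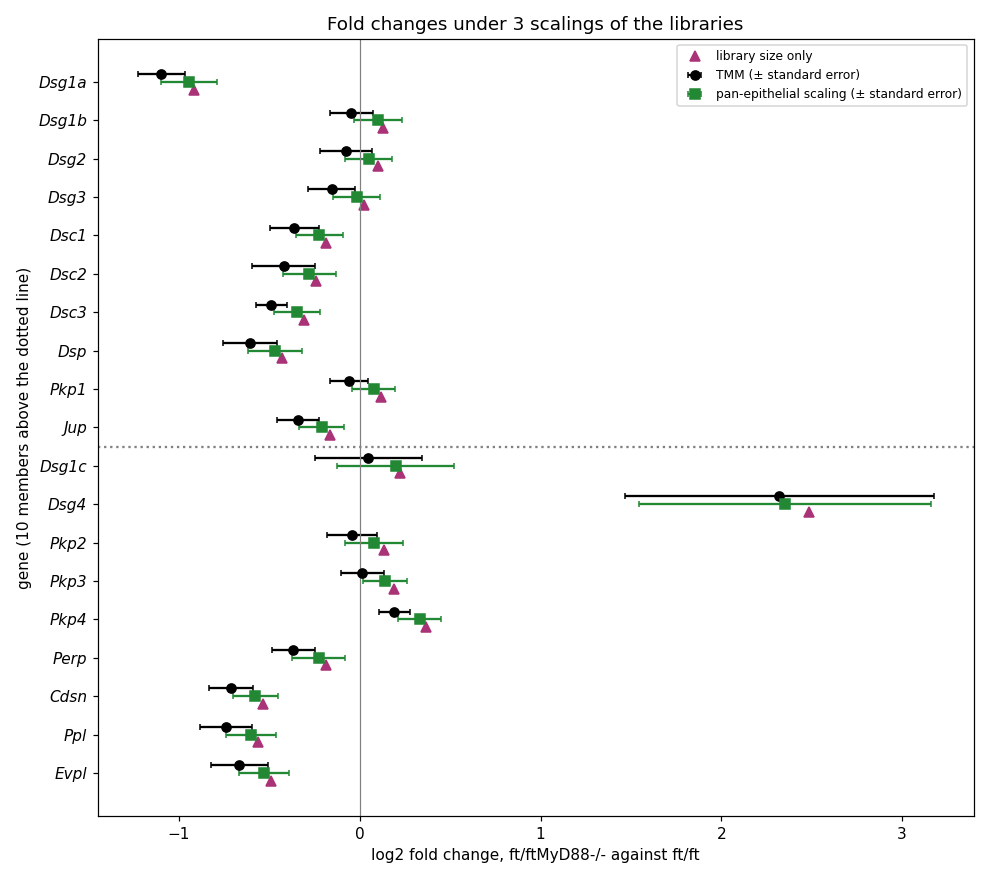
Log2 fold change of ft/ftMyD88-/- against ft/ft for the 10 members and 9 other desmosome genes under TMM (black), pan-epithelial scaling (green) and library size alone (purple), with standard errors for the first 2. Of the members, *Dsg1a*, *Dsc1*, *Dsc2*, *Dsc3*, *Dsp* and *Jup* lie left of 0 under all 3 scalings, while *Dsg1b*, *Dsg2*, *Dsg3* and *Pkp1* cross it. Of the other genes, *Perp*, *Cdsn*, *Ppl* and *Evpl* lie left of 0 throughout.

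Ratios of counts within a library do not depend on library scaling, and 6 were compared, of lower-layer or simple-epithelial against upper-layer cadherins and of plaque genes against *Dsp*. The *Dsg3* count per count of *Dsg1a* and *Dsg1b* together was 0.112, 0.2, 0.18 and 0.133 in ft/ft and 0.288, 0.35, 0.202 and 0.24 in ft/ftMyD88-/-. That is a 1.74-fold higher ratio (difference 0.80 on the log2 scale, higher in 4 of 4 libraries than in any ft/ft library, exact two-sided permutation p = 0.0286, Benjamini-Hochberg adjusted p = 0.0571 over the 6 ratios). The *Dsg2* ratio to the same sum was 1.83-fold higher and the *Pkp1* to *Dsp* ratio 1.45-fold higher, with the same exact p and adjusted p. Both desmoglein ratios share a denominator and are not separate results. With TMM, the numerators *Dsg3* (log2 fold change -0.15), *Dsg2* (-0.08) and *Pkp1* (-0.06) were not called. In the denominators, *Dsg1a* (-1.10) and *Dsp* (-0.61) were called lower and *Dsg1b* (-0.05) was not. The higher ratios thus repeat the lower *Dsg1a* and *Dsp* levels given above. A p of 0.0286 is the smallest that 4 libraries against 4 allow, and none of the 6 ratios passed 0.05 after adjustment. *Pkp1* counts per *Dsp* count were 0.31, 0.243, 0.278 and 0.267 in ft/ft and 0.371, 0.402, 0.37 and 0.451 in ft/ftMyD88-/-. The *Jup* to *Dsp* ratio overlapped between groups (1.19-fold, exact permutation p = 0.0857, adjusted p = 0.129). Among the desmocollins, the *Dsc3* to *Dsc1* ratio (0.919-fold, exact permutation p = 0.429, adjusted p = 0.514) and the *Dsc2* to *Dsc1* ratio (0.962-fold, exact permutation p = 0.857, adjusted p = 0.857) overlapped as well.

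**Figure D3:**
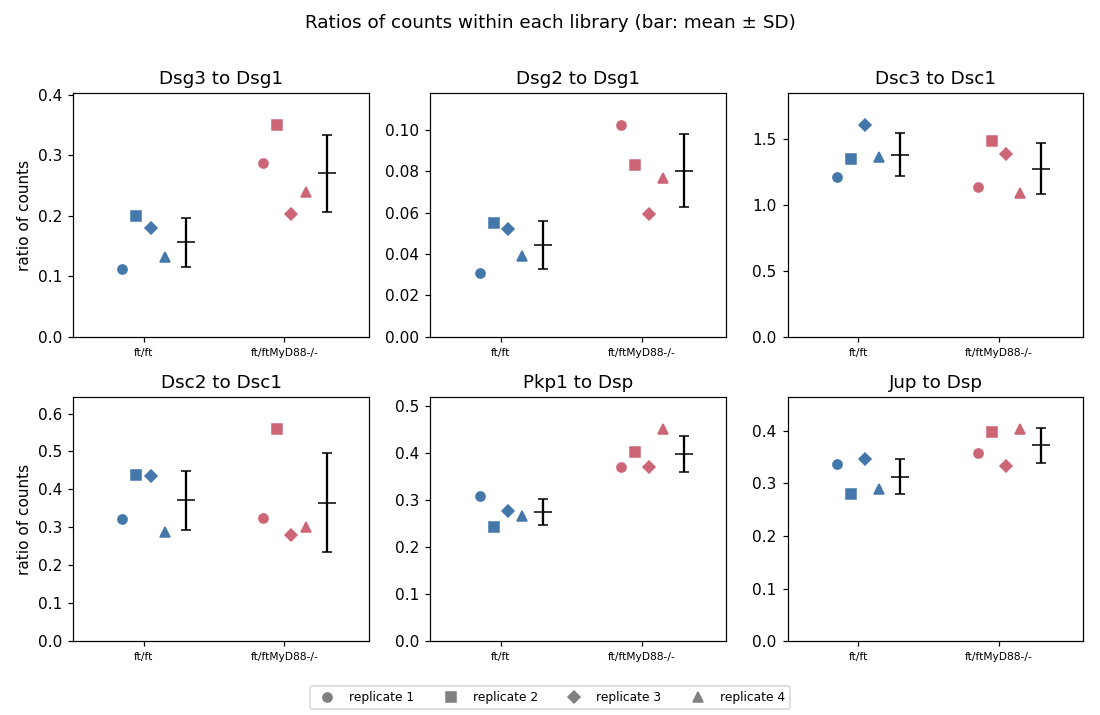
Ratio of counts within each library (axes from 0) for 6 pairs, where Dsg1 stands for *Dsg1a* plus *Dsg1b*, with symbols for the replicate number and black bars for mean ± SD. The ratios of *Dsg3* and *Dsg2* to Dsg1 and of *Pkp1* to *Dsp* separate the groups, and the other 3 overlap. The separation is narrow for *Dsg3* to Dsg1, with 0.1998 in ft/ft replicate 2 and 0.2024 in ft/ftMyD88-/- replicate 3. For *Dsg2* to Dsg1 the same libraries are nearest, at 0.0552 and 0.0593.

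The make-up of the cadherin transcripts followed from these levels. *Dsg1a* held 35.4% ± 3.65 (SD, n = 4) of the summed CPM per kilobase of the 7 cadherins in ft/ft and 24.8% ± 2.78 in ft/ftMyD88-/-, where every library lay below the lowest ft/ft value of 31.2%. *Dsc3* held 25.9% ± 1.76 and 27.6% ± 1.04, *Dsc1* 20.1% ± 1.08 and 23.5% ± 2.75, and *Dsg1b* 5.41% ± 0.732 and 7.87% ± 0.92. In ft/ft libraries *Dsg1a* had the highest share in each of the 4, and in ft/ftMyD88-/- *Dsc3* did so in 3 of 4, with *Dsg1a* first in replicate 3. These are shares of transcript level and carry no test, since they add up to the same total in every library. They also rest on division by full exon length. The *Dsg1a* and *Dsg1b* shares, and ranks that involve them, carry the uncertainty of reads shared between these genes.

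**Figure D4:**
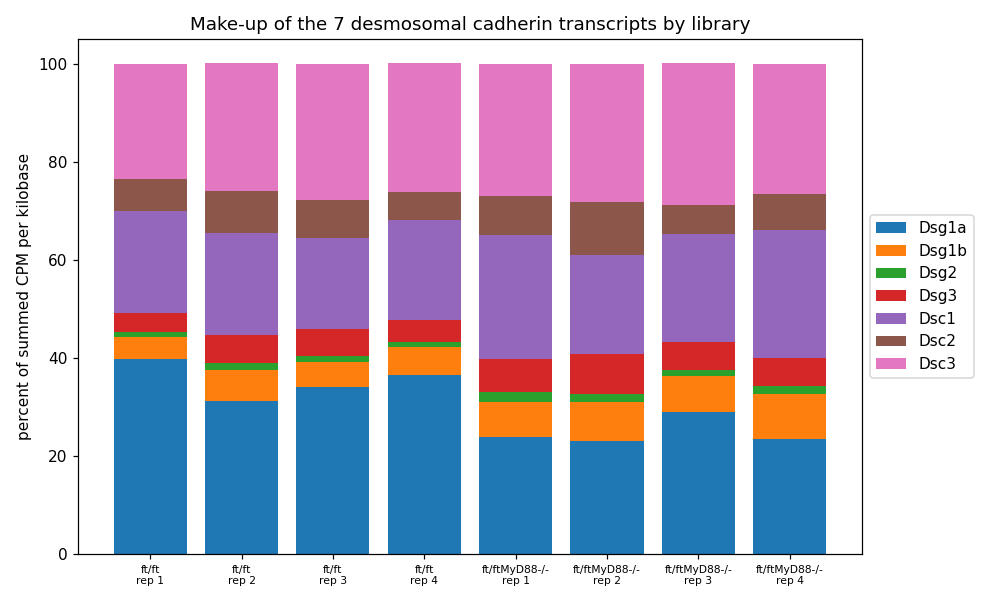
Percent of the summed CPM per kilobase of the 7 desmosomal cadherin transcripts held by each gene, stacked, in each of the 8 libraries. The *Dsg1a* segment spans 31.2% to 39.7% in ft/ft and is smaller in each ft/ftMyD88-/- library.

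Of 9 other genes of the structure, 4 fell (*Perp*, *Cdsn*, *Ppl* and *Evpl*) and none rose, with a median log2 fold change of -0.04, where 12.3% of all genes tested were lower and 10.9% higher. On the pan-epithelial scale 3 of the 9 were lower and 0 higher, against 4.68% of all genes lower and 13.7% higher. With library size alone 3 were lower and 1 higher, against 6.48% of all genes lower and 29.2% called. Periplakin (*Ppl*) and envoplakin (*Evpl*), relatives of desmoplakin that link keratin to the cornified envelope, were at 683 ± 144 and 514 ± 124 CPM (SD, n = 4) in ft/ft and at 409 ± 51.6 and 324 ± 46.9 in ft/ftMyD88-/-. Their log2 fold changes were -0.74 ± 0.143 (SE, edgeR adjusted p = 0.00349) and -0.67 ± 0.156 (SE, edgeR adjusted p = 0.00995). Corneodesmosin (*Cdsn*), the glycoprotein of desmosomes in the cornified layer, was at 923, 1047, 858 and 849 CPM in ft/ft and at 669.9, 474, 512 and 590.3 in ft/ftMyD88-/- (log2 fold change -0.71 ± 0.122 SE, edgeR adjusted p = 0.00182). *Perp*, a tetraspan protein of desmosomes, had a log2 fold change of -0.37 ± 0.118 (SE, edgeR adjusted p = 0.0422), and kept its call in 2 of the 8 fits without 1 library and not on the pan-epithelial scale (edgeR adjusted p = 0.305).

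The other plakophilins *Pkp2* (log2 fold change -0.04), *Pkp3* (0.01) and *Pkp4* (0.19) were not called (edgeR adjusted p from 0.129 to 0.946), although *Pkp4* was higher with library size alone (log2 fold change 0.37, edgeR adjusted p = 0.00931). *Dsg4*, the desmoglein of the hair shaft, was at 4.76, 5.71, 4.91 and 10.4 CPM in ft/ft and at 78.9, 6.03, 12.8 and 32.1 in ft/ftMyD88-/-, a log2 fold change of 2.32 with a standard error of 0.854 (edgeR adjusted p = 0.102). It was called without ft/ftMyD88-/- replicate 2 (edgeR adjusted p = 0.0491) and by DESeq2 (adjusted p = 0.0138), and without ft/ftMyD88-/- replicate 1 the log2 fold change was 1.37. The summed level of 12 anagen hair follicle genes moved with it, at 1967 to 2844 CPM in ft/ft and at 17390, 2524, 3906 and 9311 in ft/ftMyD88-/- replicates 1 to 4. Its part in the *Dsg4* values was not tested.

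The adherens junction, the other cadherin junction of keratinocytes, had 2 of 11 matched genes lower and none higher, with a median log2 fold change of -0.235. Over all genes 12.3% were lower and 23.3% called, so this count is near the background. E-cadherin (*Cdh1*) averaged 403 ± 37.3 CPM (SD, n = 4) in ft/ft and 304 ± 27.4 in ft/ftMyD88-/- (log2 fold change -0.41 ± 0.0989 SE, edgeR adjusted p = 0.0113), and p120 catenin (*Ctnnd1*) had a log2 fold change of -0.46 ± 0.111 (SE, edgeR adjusted p = 0.0107). P-cadherin (*Cdh3*) had a log2 fold change of 0.43 (edgeR adjusted p = 0.0729) and *Nectin1*, an immunoglobulin-like adhesion molecule, of 0.47 (edgeR adjusted p = 0.0843). On the pan-epithelial scale the calls exchanged, with *Cdh3* (0.55, edgeR adjusted p = 0.0101) and *Nectin1* (0.61, edgeR adjusted p = 0.0108) higher and *Cdh1*, itself among the 20 scaling genes, and *Ctnnd1* not called. With library size alone, *Cdh3* and *Nectin1* were likewise the called genes, both higher. On the pan-epithelial scale 13.7% of all genes were higher and 18.4% called, and with library size alone 29.2% were called. The 2 of 11 genes called are thus near the background on the pan-epithelial scale and below it with library size alone. Without ft/ft replicate 2 the called genes were *Cdh1*, *Ctnnd1*, *Cdh3* and *Nectin1*, and without ft/ftMyD88-/- replicate 1 they were *Cdh1*, *Ctnnd1*, *Afdn* and *Nectin4*.

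Markers of the cells that carry desmosomes moved beside the members. The summed level of 8 basal keratinocyte genes was 13940 to 17140 CPM in ft/ft and 9721 to 11970 in ft/ftMyD88-/-, with 6 of 8 lower. *Krt5* fell (log2 fold change -0.67, edgeR adjusted p = 0.0014) and *Krt15* fell further (-1.36, edgeR adjusted p = 1.30e-04), while *Krt14* did not pass (0.05, edgeR adjusted p = 0.839). Of 10 genes of differentiated keratinocytes 4 were lower, and their sum was 22100 to 27250 against 13620 to 16520 CPM. The 4 stress keratins *Krt6a*, *Krt6b*, *Krt16* and *Krt17* were not called, their sum at 2784 to 3573 against 3208 to 5403. *Krt16* came close (log2 fold change 2.58 ± 0.749 SE, edgeR adjusted p = 0.053). It averaged 104 CPM in ft/ft and 626 in ft/ftMyD88-/-, and the groups did not overlap. The groups overlapped for *Krt6a* (log2 fold change 0.49), *Krt6b* (0.20) and *Krt17* (0.31). On the pan-epithelial scale *Krt16* and *Krt17* were higher (edgeR adjusted p = 0.0445 and 0.0328). Muscle genes were lower in 9 of 10, sebocyte genes in 6 of 10, fibroblast genes in 3 of 7, simple and conjunctival epithelial genes in 2 of 8 and endothelial genes in 1 of 6, while 4 of 8 leukocyte genes were higher and 2 lower. On the pan-epithelial scale the lower counts were 4 for basal and 4 for differentiated keratinocyte genes, 5 for muscle, 4 for sebocyte, 3 for fibroblast, 1 for simple epithelial and 0 for endothelial genes, with 4 leukocyte genes higher and 0 lower. Also on that scale, 1 differentiated keratinocyte gene, *Tgm3*, was higher (log2 fold change 0.97, edgeR adjusted p = 0.00446). Over all genes 12.3% were lower and 10.9% higher with TMM, and 4.68% lower and 13.7% higher on the pan-epithelial scale. No marker of these lists was at 0 in all libraries, and their part in the members' differences was not tested, apart from the pan-epithelial scaling above.

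**Figure D5:**
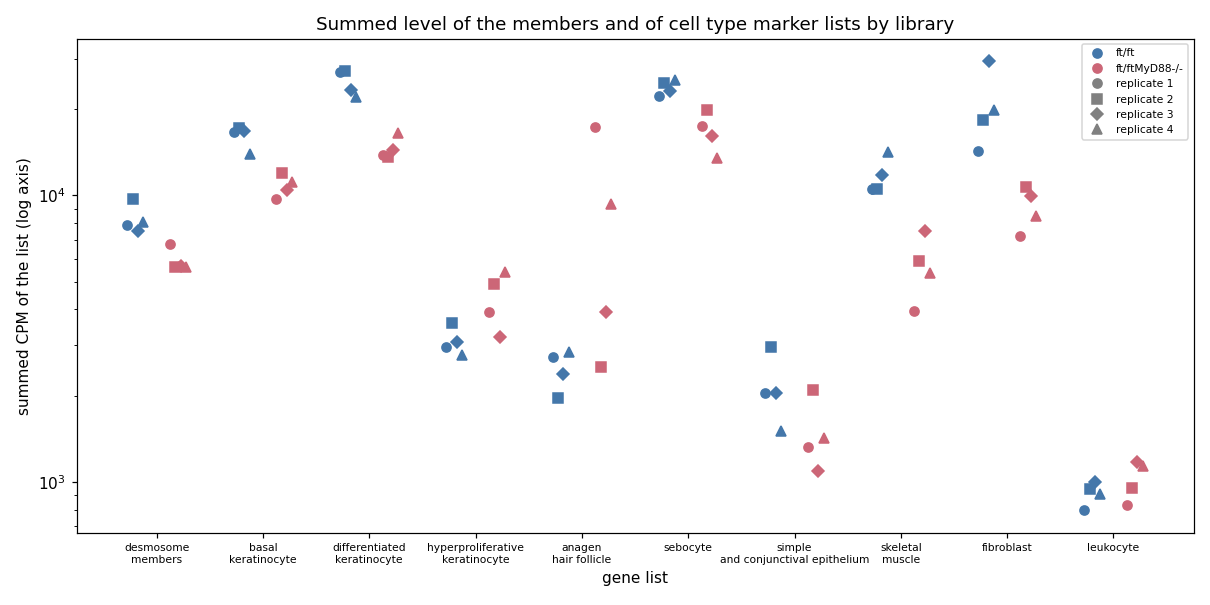
Summed CPM (log axis) of the 10 members and of 9 cell type marker lists in each ft/ft (blue) and ft/ftMyD88-/- (red) library, with symbols for the replicate number. The sums of the members and of the basal and differentiated keratinocyte lists lie lower in every ft/ftMyD88-/- library than in any ft/ft library. The same holds for the sebocyte, skeletal muscle and fibroblast sums. The hair follicle sum reaches 17390 in ft/ftMyD88-/- replicate 1.

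Within groups, the members did not vary as a single block. After the group mean was taken out, log2 CPM of *Jup* correlated with *Dsg2* at Pearson r = 0.933, with *Dsg3* at 0.879 and with *Pkp1* at 0.848 over the 8 libraries, whereas *Dsg1a* correlated with *Dsg3* at -0.70 and with *Dsc1* at 0.543. These are descriptions over libraries that share depth and tissue make-up. Outside the list, of 13498 genes with a mean of at least 50 counts, those most like *Dsp* were *Arhgap32* (r = 0.997), *Sec16a* (0.99) and *Cep170b* (0.988), those most like *Dsg1a* were *Zfp160* (0.982), *Gjb5* (0.972) and *Agpat5* (0.971), and those most like *Jup* were *Fam206a* (0.988), *Actn4* (0.986) and *Strn4* (0.979). The closest gene was *Krt23* for *Dsc1* (0.979), *Ermard* for *Dsc3* (0.988), *Serpinb3a* for *Dsc2* (0.975), *H13* for *Dsg3* (0.98), *Slc7a1* for *Dsg2* (0.988), *Snap29* for *Dsg1b* (0.965) and *Zdhhc5* for *Pkp1* (0.99). These are the highest of 13498 correlations over 8 libraries, and how high unrelated genes would reach was not tested. *Zfp160* did not share the group difference of *Dsg1a* (log2 fold change 0.058, edgeR adjusted p = 0.765). *Gjb5* (-0.904) and *Agpat5* (-0.47) were lower, as *Dsg1a* was.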

How the data were processed

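The study's methods describe polyA-selected TruSeq libraries read as 50-base single ends, HISAT and tophat2 alignment (GRCm38.p6) and HTSeq with its defaults. The sample labels instead give total RNA, a fixed-tissue protocol and Cell Ranger, and the strand setting is not given in the sources used here. The authors deposited raw counts per gene without normalization. Columns were matched to samples by library name, and no replicate pair agreed within counting noise (chi-square per degree of freedom at least 16.3).

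A summed count of 10 or more was required (20454 of 21247 genes). Tests used edgeR 4.0.16 under R 4.3.3 (TMM, glmQLFit with robust = TRUE, glmQLFTest, no covariate, two-sided, Benjamini-Hochberg adjustment at 0.05). Standard errors came from the log2 fold change and the F value. Levels per kilobase used the union of GENCODE vM21 exons. Ratios were log2 of counts plus 0.5 and were compared with exact permutation tests in scipy 1.17.1. The pan-epithelial scale took the median ratio over 20 genes. Alternatives were DESeq2 1.42.0, limma 3.58.1 voom, other scalings, filters and thresholds, the replicate number as a block and each library left out. In simulated data for this comparison (20174 genes tested), 100 of 100 genes changed 4-fold and 87 of 100 changed 2-fold were called, with 10 unchanged genes called.

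All members were named, with the genes of the other lists that are described, and for each member up to 3 genes of like pattern. The members and lists were chosen with earlier results of these data known. *Nectin2* had more than 1 row under older symbols and was left out, and *Tff1* was not analysed here. Intervals of counting error were not needed, since every member had at least 692 counts in each library.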

Additional observations from a re-analysis of the deposited data

Results flagged for a closer look

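Among 72 groups of 4 libraries (members, other desmosome genes, adherens junction genes and ratios), 5 held a library far from the other 3 by Dixon's criterion, which chance gives in about 1 group in 20. *Dsg1b* was at 117 CPM in ft/ftMyD88-/- replicate 4 against 90.5 to 94.1. *Evpl* was at 699 CPM in ft/ft replicate 2 against 441 to 465, the library in which *Dsp* and *Ppl* were also highest. *Dsg4* was at 10.4 CPM in ft/ft replicate 4 against 4.76 to 5.71. *Ctnna1*, alpha-catenin of the adherens junction, was at 338 CPM in ft/ftMyD88-/- replicate 1 against 289 to 295. The *Dsc2* to *Dsc1* ratio was 0.559 in ft/ftMyD88-/- replicate 2 against 0.279 to 0.324.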

How the results depend on the processing

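*Dsg1a* kept its direction and call under all 19 alternatives run. *Dsc3* lost its call on the pan-epithelial scale and *Dsp* at an adjusted p under 0.01, and both lost it where a log2 fold change of at least 1 was also asked. *Jup* lost its call in 14 of 19. The number of members called, 4 in the reported fit, was 2 with pan-epithelial scaling, 2 at an adjusted p under 0.01 and 1 with a log2 fold change of at least 1, and ran from 3 to 5 without 1 library. Of the other desmosome genes none was called with that minimum (0, against 4), and the count ran from 3 to 5 without 1 library. Adherens junction genes called, 2 as reported, were 4 with DESeq2, 0 at an adjusted p under 0.01, 0 with the minimum fold change and 5 without both ft/ft replicate 2 and ft/ftMyD88-/- replicate 1 (an alternative added after the data were seen), and ran from 2 to 4 without 1 library.

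Over all genes, 4764 were called, against 2301 at an adjusted p under 0.01 and 1272 with the minimum fold change. The total was 3755 with pan-epithelial scaling, 5642 with DESeq2 and 4039 with the replicate block. It ran from 3346 to 4668 without 1 library and was 3801 without both libraries named above.

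Estimates that turned sign belonged to uncalled genes. With library size alone they were 0.129 for *Dsg1b*, 0.0995 for *Dsg2*, 0.0228 for *Dsg3*, 0.116 for *Pkp1* and 0.132 for *Pkp2*. On the pan-epithelial scale they were 0.101 for *Dsg1b*, 0.0489 for *Dsg2*, 0.0764 for *Pkp1* and 0.0787 for *Pkp2*. Without both libraries named above, *Dsg1b* was at 0.0871 and *Pkp3* at -0.0707. Without 1 library, the log2 fold change ran from -0.129 to 0.0613 for *Dsg1b*, from -0.215 to 0.0254 for *Dsg2*, from -0.116 to 0.0114 for *Pkp1*, from -0.0791 to 0.195 for *Dsg1c*, from -0.188 to 0.0376 for *Pkp2* and from -0.105 to 0.0955 for *Pkp3*.

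The log2 difference of the ratios ran without 1 library from 0.652 to 0.933 for *Dsg3* to Dsg1, from 0.709 to 1.01 for *Dsg2* to Dsg1, from 0.478 to 0.599 for *Pkp1* to *Dsp* and from -0.28 to 0.0549 for *Dsc2* to *Dsc1*. With 3 libraries against 4 the exact test cannot go below 0.0571. The replicate numbers did not pair the libraries: correlations of same-numbered deviations ran from -0.35 to 0.07, and 1 of 4 ft/ft libraries correlated best with its own number. With the replicate block, 4 members were called, *Dsc2* in place of *Jup* (edgeR adjusted p = 0.0349 and 0.0826), *Pkp3* was at -5.58e-04, and the ratio differences were 0.801, 0.869 and 0.539 with an exact p of 0.125, the smallest that 4 pairs allow. The cause of these changes was not tested, apart from the fewer samples and stricter thresholds by construction.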
